A study of Homo sapiens with 15 samples.

Results

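The Eph receptors and their ligands, the ephrins, were followed in 3 oral cell lines through 10 genes: the receptors EPHA1, EPHA2, EPHA4, EPHB2, EPHB3 and EPHB4 and the ligands EFNA1, EFNA5, EFNB1 and EFNB2. The genes were chosen by their symbols. All 10 were found among the 12995 genes that both deposited tables list. RNA was read by QuantSeq, a method that sequences a single tag near the 3′ end of each polyadenylated transcript, in 15 libraries that form 5 groups of 3. The study asked how YBX1 acts in head and neck cancer cells.

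The OKF6 group is a wild-type line of normal oral epithelial cells. SCC15 and SCC25 are oral squamous cancer lines, and both were made to carry Cas9 and an inducible guide against YBX1 by lentivirus, so that their control groups hold these constructs too. They are pools of transduced cells sorted for 2 fluorescent markers, not single clones. The +YBX1 groups of SCC15 and SCC25 are the cells with YBX1 intact. The −YBX1 groups received doxycycline at 1 µg/ml, which switches on the editing of YBX1, a protein that binds DNA and RNA through a cold-shock domain. The labels call these groups a YBX1 knockout and give 3 days as the time of every group. Since YBX1 RNA remained, the change is called a knockdown here. Line and culture medium cannot be told apart wherever SCC15, kept in DMEM with serum, is compared with the other lines, which grew in a serum-free keratinocyte medium. No group with doxycycline and without editing was analysed here, so that the drug and the loss of YBX1 cannot be told apart either.

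Eph receptors are the largest family of receptor tyrosine kinases, and their ligands sit on the surface of the neighbouring cell. A-type ephrins are held in the membrane by a lipid anchor and mostly bind EphA receptors, while B-type ephrins cross the membrane and mostly bind EphB receptors, with EPHA4 known for binding ligands of both types. Contact signals in both directions, into the cell with the receptor and into the cell with the ligand, and in epithelia this signalling is known for setting boundaries between cell populations and for regulating adhesion and migration.

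Between 4075290 and 6118501 reads per library fell on listed genes, so that a single read was worth 0.138 to 0.226 CPM, the reads of a gene scaled to the size of its library, which is given below on a log2 scale. Nothing in the labels says that the libraries of a group came from separate cultures, so the tests measure the spread between these libraries, which may be technical. Intervals and floors for low counts cover counting error only, and a floor of 3 reads, at most 0.677 CPM, was used where a gene had none. YBX1 itself read 6.74, 6.31 and 6.62 log2 CPM in SCC25 +YBX1 and 5.26, 4.70 and 3.65 after doxycycline. The SCC15 libraries read 5.11, 5.56 and 6.00 with YBX1 intact and 3.36, 3.71 and 3.13 after doxycycline. It lay lower in −YBX1 in all 3 same-numbered pairs of each line, by 75.2% in SCC25 and by 77.5% in SCC15 as geometric means of the pairs. In OKF6 it read 6.76, 8.15 and 8.37. The first OKF6 library stood apart from the other two over all genes, by a chi-square test of the reads that gave 81.2 and 79.6 for each degree of freedom against them and 26.2 between those 2. In the comparisons with OKF6, leaving it out ended no call on the 10 genes and added 2, on EPHB4 and EFNB1, which are given below. Calls over all genes then rose from 6534 to 7434 for SCC15 and from 3923 to 5331 for SCC25. That library was not left out of the comparison of SCC15 with SCC25. Among the −YBX1 libraries, the first of SCC15 stood apart by the same measure (28.6 and 28.4, beside 3.995 between the others), as did the second of SCC25 (43.5 and 44.9, beside 22.8). The first SCC15 +YBX1 library stood apart as well (20.2 and 18.6, beside 9.27). Leaving it out kept 7 of the 10 genes called against SCC25 and 8 against OKF6, where 4773 and 5797 of all genes were called. Its removal turned the log2 change of EPHA2 on knockdown in SCC15, which was not called, from −0.28 to 0.16. Of 10 epithelial and squamous markers (CDH1, EPCAM, keratins, TP63, DSP, ITGB4), all were listed, and their summed level was 11460 to 22577 CPM in OKF6 and 6169 to 13033 CPM in SCC25 +YBX1 but 151 to 180 CPM in SCC15 +YBX1, where TP63 had at most 1 read in each library. Of 8 mesenchymal or fibroblast markers, 5 were listed, and they summed to 114 to 142 CPM in OKF6, 388 to 410 CPM in SCC15 +YBX1 and 710 to 1224 CPM in SCC25 +YBX1. That sum is mostly vimentin (VIM), and the 5 markers did not move together. VIM (−1.38) and COL1A1 (−1.57) were lower in SCC15 than in SCC25 on the log2 scale, while CDH2, ZEB1 and LUM were higher (adjusted p 0.00277, 0.000431 and 0.00498, limma), with 828, 344 and 30 reads in SCC15 +YBX1 and 167, 23 and 1 in SCC25 +YBX1. CD68 was the 1 listed gene of 3 leukocyte markers and lay at 35.6 to 39.3 CPM in SCC25 +YBX1 and at 0.154 to 1.09 CPM in SCC15 +YBX1. These markers move with the lines, and their part in the results below was not tested. In RNA from whole cultures, fewer cells of a type and less RNA per cell cannot be told apart.

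The 10 genes lie on 7 chromosomes, and a promoter window, from 250 bases before to 50 after the start, was found for each in the RefSeq table of build GRCh38.p14. The windows of 4 genes are printed, on the strand of the gene, because 3 of them (EPHA2, EPHB3 and EFNB1) had the most alike patterns across the groups, each gene centred on its own average, and EPHB2 differed from them in OKF6. Capitals mark the GC box GGGCGG and the inverted CCAAT box ATTGG, the core of the element YBX1 was named after, on either strand.
EPHA2 (chr1:16156020-16156319, minus strand): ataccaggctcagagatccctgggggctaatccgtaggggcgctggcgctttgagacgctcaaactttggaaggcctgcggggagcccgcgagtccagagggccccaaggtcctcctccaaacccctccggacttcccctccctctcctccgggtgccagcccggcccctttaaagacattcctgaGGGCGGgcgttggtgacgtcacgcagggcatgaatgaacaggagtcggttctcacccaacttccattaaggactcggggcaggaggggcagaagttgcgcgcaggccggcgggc
EPHB3 (chr3:184561535-184561834, plus strand): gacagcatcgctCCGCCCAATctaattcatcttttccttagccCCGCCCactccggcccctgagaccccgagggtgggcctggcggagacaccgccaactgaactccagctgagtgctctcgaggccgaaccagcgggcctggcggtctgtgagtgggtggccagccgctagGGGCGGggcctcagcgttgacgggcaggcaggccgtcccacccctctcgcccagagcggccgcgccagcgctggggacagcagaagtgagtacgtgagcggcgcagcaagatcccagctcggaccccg
EFNB1 (chrX:68828771-68829070, plus strand): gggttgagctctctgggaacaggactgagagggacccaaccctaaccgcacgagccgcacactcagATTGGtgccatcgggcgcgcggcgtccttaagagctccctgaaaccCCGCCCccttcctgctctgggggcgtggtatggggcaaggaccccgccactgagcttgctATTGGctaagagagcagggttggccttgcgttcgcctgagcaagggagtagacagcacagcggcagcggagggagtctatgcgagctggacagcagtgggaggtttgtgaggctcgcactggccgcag
EPHB2 (chr1:22710588-22710887, plus strand): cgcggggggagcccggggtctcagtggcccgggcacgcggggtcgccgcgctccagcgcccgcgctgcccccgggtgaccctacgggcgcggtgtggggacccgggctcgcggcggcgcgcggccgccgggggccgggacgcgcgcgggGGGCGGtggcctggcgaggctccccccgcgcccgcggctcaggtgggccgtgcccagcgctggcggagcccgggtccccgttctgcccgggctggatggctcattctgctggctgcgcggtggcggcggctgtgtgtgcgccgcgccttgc
All 10 genes had a GC box in a listed window, a motif that 45.0% of the 35116 promoters in the table hold. The inverted CCAAT box was found for 6 of the 10 (EPHA1, EPHA4, EPHB3, EPHB4, EFNB1 and EFNB2) and in 34.6% of all promoters. The longer Y-box CTGATTGG was found for EPHB4 alone and in 3.97% of all promoters, and in EPHB3 the CCAAT letters overlap a GC box by 2 bases. The TEAD motif GGAATG was found for EPHA2 alone (14.0% of all promoters), the E-box CACCTG for EPHA1, EPHB2 and EFNB2 (20.6%), TATAAA for EFNB2 alone (11.5%) and the AP-1 motif TGANTCA for none (7.71%). Both strands were searched, and EPHA4 and EPHB2 had 2 listed starts. GC content of the windows ran from 43% to 83%, beside a median of 58.7% for all promoters. A match is a run of letters and not a site in use.

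Among the untreated lines, SCC15 stood apart through low levels of most of the 10 genes. Compared with SCC25, 7 of the 10 were lower in SCC15 (EPHA1, EPHA2, EPHB3, EPHB4, EFNA1, EFNB1 and EFNB2), 0 were higher and 3 did not pass the test, where 23.6% of all genes were lower and 20.0% higher (limma, adjusted p under 0.05). Compared with OKF6, 6 were lower in SCC15 (EPHA1, EPHA2, EPHB3, EFNA1, EFNB1 and EFNB2) and 2 higher (EPHA4 and EPHB2), where 23.4% of all genes were lower and 26.9% higher. SCC25 differed from OKF6 in fewer of them, with EPHB2, EPHA4 and EFNA1 higher and EFNB2 lower, where 18.9% of all genes were higher and 11.3% lower. The median log2 difference of the 10 genes was −2.44 for SCC15 less SCC25, −1.97 for SCC15 less OKF6 and 0.60 for SCC25 less OKF6, beside −0.01, 0.10 and 0.13 for all genes. Libraries without overlap are common between these lines, at 66.6% of all genes for SCC15 and SCC25, 54.4% for SCC15 and OKF6 and 43.3% for SCC25 and OKF6, beside 10, 9 and 5 of the 10 genes. Holding EPHA1, which had no read in SCC15, at the bound its floor allows left the first 2 of these medians at −2.44 and −1.97.

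The 3 comparisons share libraries pairwise, so that their counts do not stand independently of each other. The library medians themselves differed by −0.15 for SCC15 less SCC25 and by −0.16 for SCC15 less OKF6 on the log2 scale. With the medians set equal the calls read 1 higher and 7 lower against SCC25, where 3045 of all genes were higher and 2685 lower. Against OKF6 they read 3 higher and 5 lower, where 3981 of all genes were higher and 2662 lower. With quantiles set equal they read 2 higher and 7 lower against SCC25, beside 3430 and 2767 of all genes. Against OKF6 these calls read 3 higher and 6 lower, beside 3828 and 3009 of all genes. EFNA5 and EPHA4 were the genes gained on the higher side against SCC25 with quantiles set equal.

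**Figure D1:**
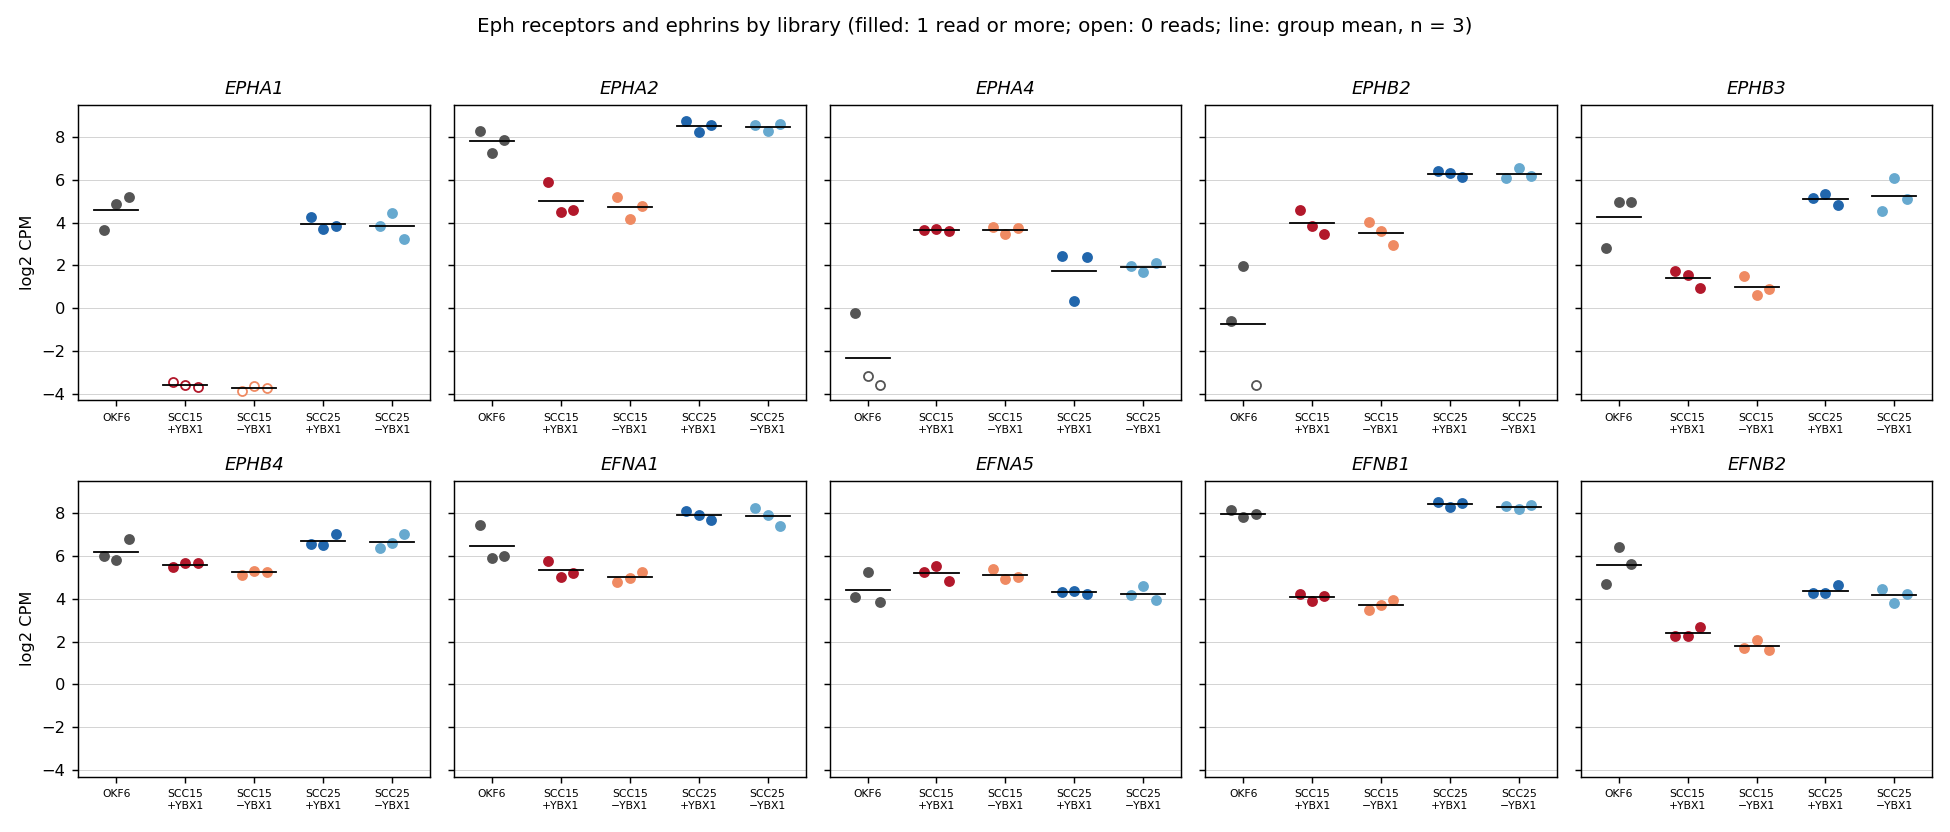
Level of each of the 10 genes in log2 CPM (vertical axis) in the 3 libraries of each of the 5 groups (horizontal axis), with filled points for 1 read or more, open points for 0 reads and a line at the group mean. EPHA1 is at 0 reads in all 6 SCC15 libraries, and EPHA2, EPHB3, EFNA1, EFNB1 and EFNB2 sit lower in SCC15 than in OKF6 and SCC25.

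Of the A-type receptors, EPHA1, an epithelial receptor and the founding member of the family, was the gene of the 10 without a read in SCC15. Its levels in OKF6 were 3.65, 4.87 and 5.20 log2 CPM (65 to 217 reads), those in SCC25 +YBX1 were 4.24, 3.71 and 3.85, and those in SCC25 −YBX1 were 3.85, 4.45 and 3.22. SCC15 had 0 reads in each of its 6 libraries. OKF6 and SCC25 overlapped, and SCC15 lay below both. Against the floor of 3 reads, EPHA1 was at least 28.2-fold lower in SCC15 than in SCC25 and at least 47.7-fold lower than in OKF6 (limma, adjusted p 9.45e-07 and 4.57e-07). These p-values belong to the log2 differences of −7.51 and −8.15 and not to the bounds. Such differences depend on the 0.5 reads added before the log, and that from SCC25 became −5.54 with 2 reads added. The difference between SCC25 and OKF6, −0.64 on the log2 scale with a 95% interval of −1.75 to 0.47, did not pass the test (adjusted p 0.369, limma).

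EPHA2, the receptor most often described as abundant in carcinomas, and itself named by the study in these lines, so that its direction between SCC15 and SCC25 is not independent evidence, was low in SCC15. The libraries read 8.28, 7.23 and 7.87 log2 CPM in OKF6, 8.73, 8.22 and 8.55 in SCC25 +YBX1, and 5.87, 4.49 and 4.60 in SCC15 +YBX1. The −YBX1 libraries read 8.55, 8.26 and 8.60 in SCC25 and 5.18, 4.18 and 4.76 in SCC15. All 6 SCC15 libraries lay below all 9 others, and OKF6 overlapped with SCC25. EPHA2 was 11.4-fold lower in SCC15 than in SCC25 (log2 difference −3.51, SE 0.37, adjusted p 2.42e-05) and 7-fold lower than in OKF6 (−2.81, SE 0.37, adjusted p 9.51e-05, limma). Its order of levels was SCC25, OKF6 and then SCC15, and the step between SCC25 and OKF6 (0.70, 95% interval −0.12 to 1.53, adjusted p 0.179) did not pass the test.

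EPHA4, the receptor that binds ephrins of both types, ran the other way. OKF6 held 4, 0 and 0 reads. SCC15 +YBX1 read 3.64, 3.71 and 3.61 log2 CPM and SCC15 −YBX1 3.81, 3.46 and 3.74, while SCC25 +YBX1 read 2.42, 0.36 and 2.41 and SCC25 −YBX1 1.95, 1.68 and 2.11. SCC15 lay above SCC25 and SCC25 above OKF6 with no overlap of the libraries. The second step is narrow, since the second SCC25 +YBX1 library held 6 reads beside 4 in the first OKF6 library. The log2 difference from OKF6 was 5.96 for SCC15 (adjusted p 0.000208) and 4.04 for SCC25 (adjusted p 0.00629, limma), and since OKF6 was near 0 these values depend on the reads added before the log, falling to 4.52 and 2.72 with 2 reads added in place of 0.5. SCC15 and SCC25 differed by 1.93 (SE 0.88, 95% interval −0.02 to 3.87, adjusted p 0.102), short of the threshold in the fit with all 3 lines and past it with OKF6 left out (adjusted p 0.0103, limma).

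Of the B-type receptors, EPHB2, known for sorting cells into compartments of the gut and for responding to ephrin-B ligands, was far higher in both cancer lines than in OKF6, and in SCC25 its difference was the largest of the 10. OKF6 held 3, 17 and 0 reads (−0.58, 1.98 and −3.57 log2 CPM). SCC15 +YBX1 read 4.60, 3.82 and 3.48 and SCC25 +YBX1 6.42, 6.32 and 6.12. The −YBX1 libraries read 4.03, 3.60 and 2.94 in SCC15 and 6.09, 6.54 and 6.17 in SCC25. The 3 lines fell into 3 levels without overlap, lowest in OKF6 and highest in SCC25. The log2 difference from OKF6 was 7.01 for SCC25 (SE 1.05, adjusted p 0.00077) and 4.69 for SCC15 (SE 1.05, adjusted p 0.00348, limma), or 6.13 and 3.83 with 2 reads added before the log. SCC15 and SCC25 differed by −2.32 (95% interval −4.65 to 0.01, adjusted p 0.0994), a value that passed the test with OKF6, whose libraries spread most, left out (adjusted p 5.73e-05) and with precision weights that follow the read count (adjusted p 0.00153, limma).

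EPHB3, a kinase that acts beside EPHB2 in the gut, followed EPHA2 rather than EPHB2. Its libraries read 2.81, 4.95 and 4.96 log2 CPM in OKF6, 5.13, 5.33 and 4.83 in SCC25 +YBX1, and 1.75, 1.56 and 0.94 in SCC15 +YBX1. After YBX1 knockdown they read 4.52, 6.1 and 5.12 in SCC25 and 1.50, 0.61 and 0.90 in SCC15. SCC15 lay below both other lines, and the first OKF6 library lay apart from the other two. EPHB3 was 12.8-fold lower in SCC15 than in SCC25 (−3.68, SE 0.55, adjusted p 0.00028) and 7.06-fold lower than in OKF6 (−2.82, adjusted p 0.00135, limma), and SCC25 and OKF6 differed by 0.85 with a 95% interval of −0.35 to 2.06.

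EPHB4, the receptor of EFNB2 in vessels, varied least between the lines among the receptors. OKF6 read 6.01, 5.81 and 6.77 log2 CPM, SCC25 +YBX1 6.57, 6.50 and 7.02, and SCC15 +YBX1 5.48, 5.65 and 5.66. SCC25 −YBX1 read 6.37, 6.58 and 7.04 and SCC15 −YBX1 5.13, 5.32 and 5.23. SCC15 lay lowest, with no overlap with the other lines. EPHB4 was 2.14-fold lower in SCC15 than in SCC25 (−1.10, SE 0.26, adjusted p 0.00572, limma). The difference of SCC15 from OKF6, −0.60, missed the threshold (adjusted p 0.0755) and passed it without the first or the second OKF6 library (adjusted p 0.0485 and 0.0285). That of SCC25 from OKF6, 0.50 (adjusted p 0.172), became 0.79 without the third OKF6 library (adjusted p 0.0273, limma).

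Of the A-type ligands, EFNA1, the main partner of EPHA2, was highest in SCC25. It read 7.45, 5.91 and 5.98 log2 CPM in OKF6, 8.11, 7.91 and 7.67 in SCC25 +YBX1 and 5.76, 5.02 and 5.19 in SCC15 +YBX1. With YBX1 knocked down it read 8.25, 7.92 and 7.40 in SCC25 and 4.78, 4.96 and 5.23 in SCC15. Libraries of +YBX1 and OKF6 formed 3 levels without overlap, and the first OKF6 library came near SCC25. EFNA1 was 5.94-fold lower in SCC15 than in SCC25 (−2.57, SE 0.38, adjusted p 0.000261, limma). It was 2.18-fold lower in SCC15 than in OKF6 (−1.12, adjusted p 0.0289), a call lost without the second or the third SCC15 +YBX1 library (adjusted p 0.102 and 0.0834) and with library medians set equal (−0.96, adjusted p 0.0607). The same call was lost in a fit of the compared groups alone (adjusted p 0.0672) and with no variance trend (adjusted p 0.0589, limma). EFNA1 was 2.73-fold higher in SCC25 than in OKF6 (1.45, adjusted p 0.0152), a call lost without the third OKF6 library (adjusted p 0.056) and without the first or the second SCC25 +YBX1 library (adjusted p 0.0605 and 0.0509, limma).

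EFNA5, a ligand of EphA receptors that guides axons in the developing brain, was the only ligand of the 4 whose mean was not lowest in SCC15. It read 4.08, 5.26 and 3.87 log2 CPM in OKF6, 4.30, 4.36 and 4.22 in SCC25 +YBX1 and 5.24, 5.54 and 4.83 in SCC15 +YBX1. The −YBX1 libraries read 4.15, 4.60 and 3.95 in SCC25 and 5.37, 4.91 and 5.04 in SCC15. All 6 SCC15 libraries exceeded all 6 SCC25 libraries, and the second OKF6 library fell among those of SCC15. The difference of SCC15 from SCC25, 0.91 with a 95% interval of 0.12 to 1.70 (adjusted p 0.0619), missed the threshold and passed it with OKF6 left out (adjusted p 0.00446). That from OKF6, 0.80 (adjusted p 0.0857), became 1.23 and passed it without the second OKF6 library (adjusted p 0.0036, limma).

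Of the B-type ligands, EFNB1, whose loss in humans disturbs the boundaries of the growing skull, gave the lowest adjusted p of the 10 genes in both comparisons of SCC15. Its libraries read 8.14, 7.79 and 7.98 log2 CPM in OKF6, 8.53, 8.28 and 8.47 in SCC25 +YBX1, and 4.24, 3.92 and 4.11 in SCC15 +YBX1. Those with YBX1 knocked down read 8.31, 8.18 and 8.37 in SCC25 and 3.48, 3.73 and 3.94 in SCC15. No overlap was seen between the 3 untreated lines, and the step down to SCC15 was far larger than the step between SCC25 and OKF6. EFNB1 was 20.2-fold lower in SCC15 than in SCC25 (−4.34, SE 0.18, adjusted p 5.69e-08) and 14.7-fold lower than in OKF6 (−3.88, SE 0.18, adjusted p 9.53e-08, limma). SCC25 exceeded OKF6 by 0.46 (95% interval 0.07 to 0.84), which missed the threshold (adjusted p 0.0725) and passed it without the first OKF6 library (adjusted p 0.0252, limma).

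EFNB2, the ligand of EPHB4 and a marker of arterial endothelium, was the only one of the 10 with its highest level in OKF6 and lower levels in both cancer lines by the test. OKF6 read 4.68, 6.41 and 5.63 log2 CPM, SCC25 +YBX1 4.25, 4.25 and 4.62, and SCC15 +YBX1 2.27, 2.26 and 2.68. SCC25 −YBX1 read 4.47, 3.81 and 4.23 and SCC15 −YBX1 1.70, 2.09 and 1.62. The lines stood in 3 levels without overlap. EFNB2 was 8.99-fold lower in SCC15 than in OKF6 (−3.17, SE 0.40, adjusted p 6.94e-05) and 3.92-fold lower than in SCC25 (−1.97, SE 0.40, adjusted p 0.00242, limma). It was 2.29-fold lower in SCC25 than in OKF6 (−1.20, adjusted p 0.0451), and that call was lost without the second (−0.78, adjusted p 0.121) or the third OKF6 library (adjusted p 0.0965) and without any of the 3 SCC25 +YBX1 libraries (adjusted p 0.0781 to 0.131, limma). The same call was lost in a fit of the compared groups alone (adjusted p 0.0782) and with no variance trend (adjusted p 0.0616, limma). An unnamed gene is annotated on the opposite strand of the last exon of EFNB2. QuantSeq FWD keeps the strand, but the strand setting of the counting is not given in the sources used here.

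**Figure D2:**
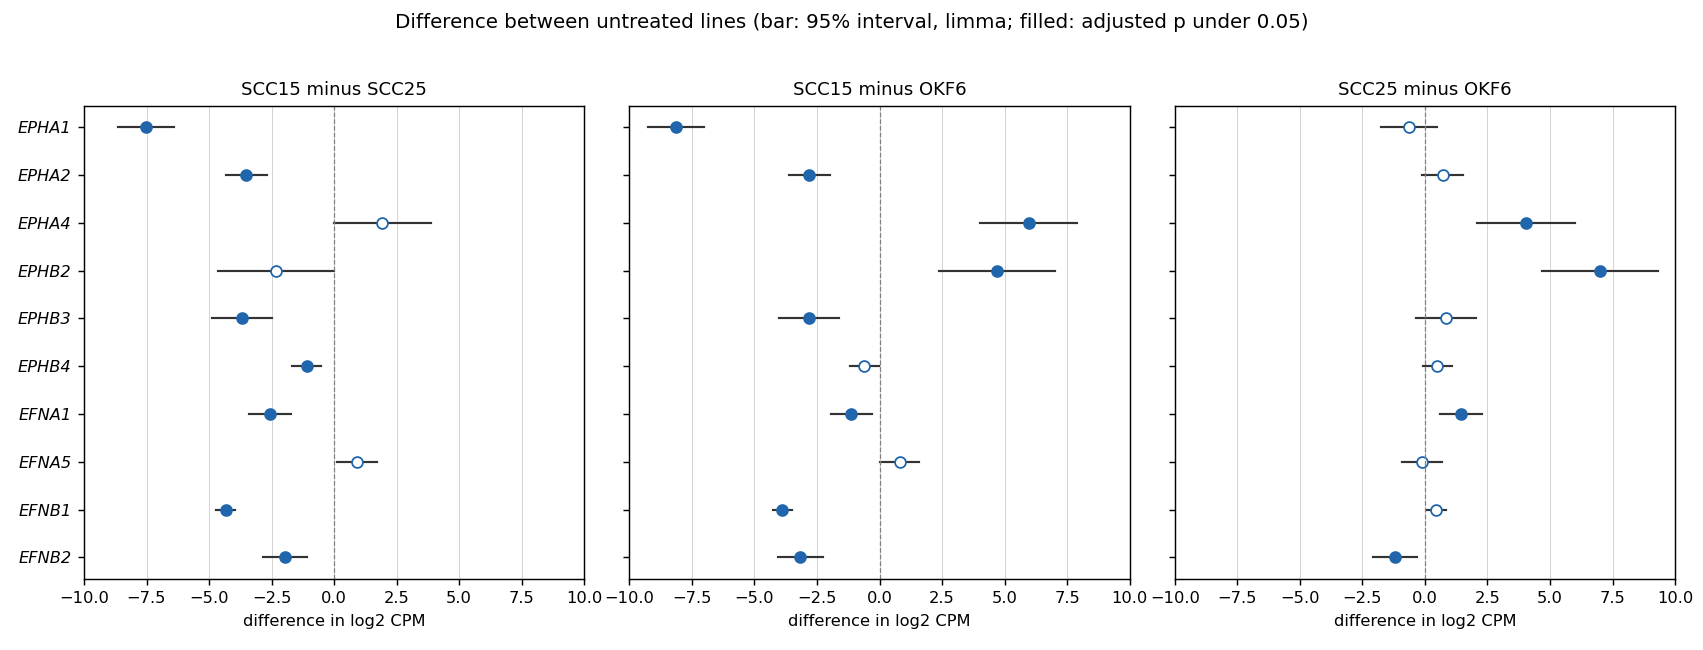
Difference in log2 CPM between untreated lines (horizontal axis) for the 10 genes (vertical axis), with the 95% interval of limma as a bar and a filled point where the adjusted p is under 0.05. Of the 10 genes, 7 are filled and left of 0 in the first panel, EPHA4 and EPHB2 are filled and right of 0 in the second, and EPHB2 reaches 7.01 in the third.

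The further Eph and ephrin genes that passed the authors' filter mostly lay higher in SCC15. Of 12 listed as the rest of the family, 7 were in the tables (EPHA3, EPHA7, EPHA8, EPHB1, EFNA3, EFNA4 and EFNB3). Compared with SCC25, 5 of the 7 were higher in SCC15 and 0 lower (20.0% and 23.6% of all genes), with a median log2 difference of 2.82. Compared with OKF6, 6 of the 7 were higher in SCC15 and 0 lower (26.9% and 23.4% of all genes), with a median of 4.99, or 2.27 with genes at 0 reads in OKF6 held at their bound. EPHA3, EPHA7, EPHA8 and EPHB1 had 0 reads in OKF6, so the filter could keep them only through the cancer lines. Their direction against OKF6 was thereby fixed in advance. In SCC25 +YBX1 they held 23, 3, 1 and 18 reads, beside 98, 329, 60 and 140 in SCC15 +YBX1, so this limit holds in part against SCC25 too. In SCC25, 3 were higher than in OKF6 (EPHA3, EPHB1 and EFNA4) and 1 lower (EFNB3), beside 18.9% and 11.3% of all genes, with a median of 1.33, or 1.17 with bounds.

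The receptors EPHA3, EPHA7, EPHA8 and EPHB1, best known from the nervous system, had 0 reads in all 3 OKF6 libraries. In SCC15 +YBX1, EPHA7 read 3.94, 4.15 and 4.44 log2 CPM, at least 26.9-fold above OKF6 and 93.1 times SCC25 +YBX1, where 3 reads were seen in all (95% counting interval 31.6 to 454). EPHB1 read 2.92, 2.97 and 3.04 in SCC15 +YBX1 and −1.09, 0.74 and 0.82 in SCC25 +YBX1, a log2 difference of 2.82 (adjusted p 0.00274, limma). EPHA3 read 2.03, 2.77 and 2.49 in SCC15 +YBX1 and 0.50, 0.56 and 0.98 in SCC25 +YBX1 (1.75, adjusted p 0.0119, limma). EPHA8 read 0.79, 1.79 and 2.28 in SCC15 +YBX1, and 1 read was seen in SCC25 +YBX1, a ratio of 50.9 whose counting interval runs from 8.80 to 2045.

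EFNB3, the third B-type ligand and a midline guidance cue in the nervous system, was higher in SCC15 than in both other lines. It had 0 reads in all 6 SCC25 libraries, 1.57, 0.31 and 1.29 log2 CPM in OKF6 and 3.23, 3.12 and 3.36 in SCC15 +YBX1. It was at least 15.0-fold higher in SCC15 than in SCC25 (adjusted p 2.17e-06), 4.52-fold higher than in OKF6 (2.18, adjusted p 0.00382), and at least 3.40-fold lower in SCC25 than in OKF6 (adjusted p 0.000115, limma). The A-type ligand EFNA4 was 3.53-fold higher in SCC25 than in OKF6 (adjusted p 0.000968, limma), and EFNA3 did not pass the test in any comparison. The last exon of EFNA3 is shared with a readthrough transcript that joins it to EFNA4, so its values are uncertain.

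**Figure D3:**
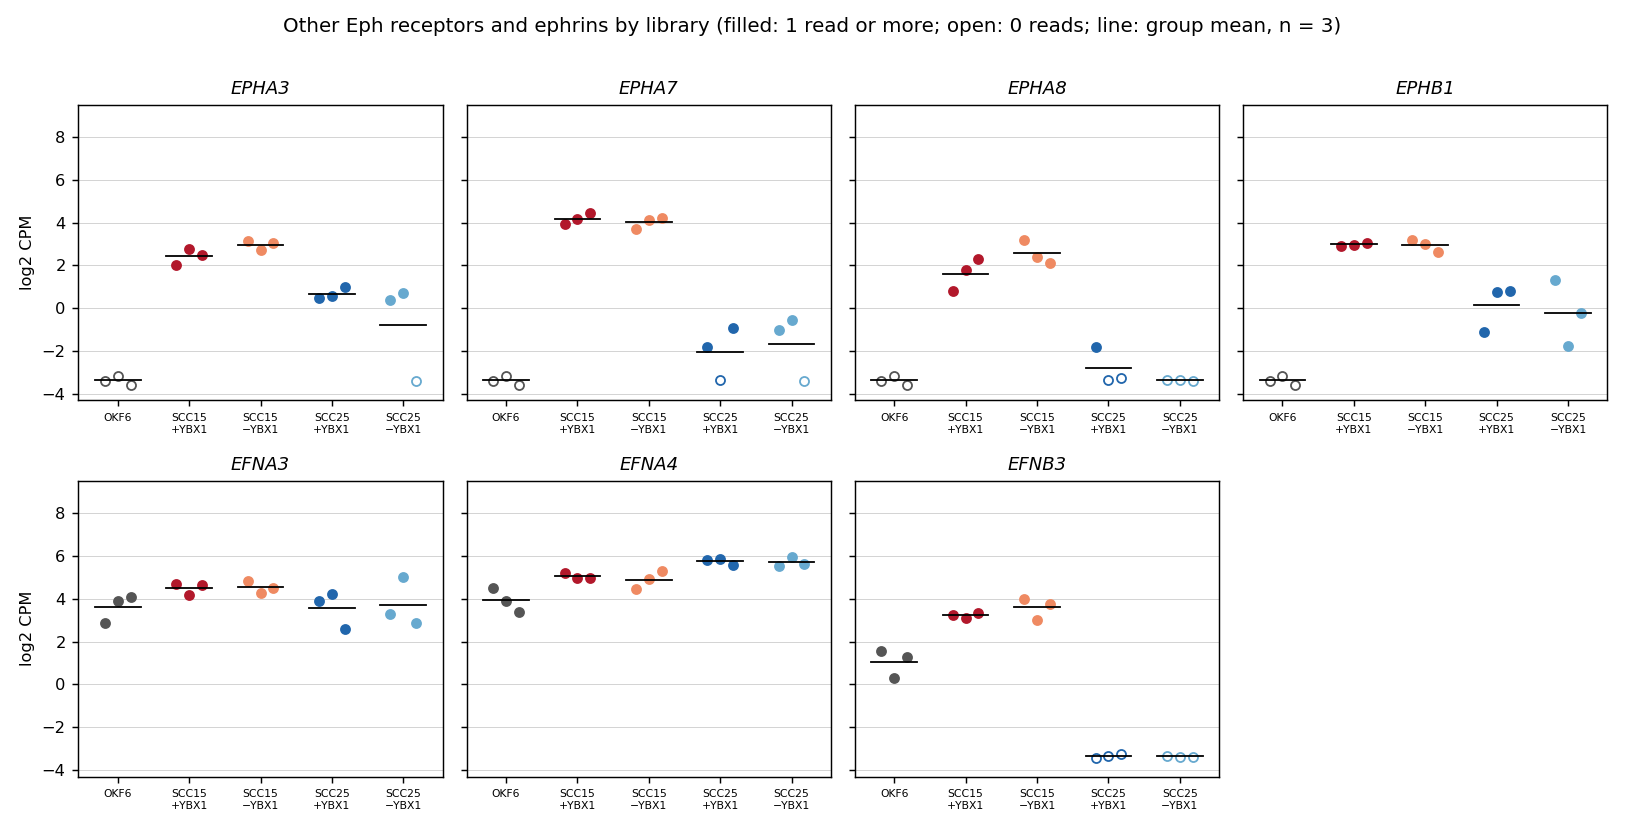
Level in log2 CPM (vertical axis) of the 7 further Eph and ephrin genes in the 3 libraries of each group (horizontal axis), with filled points for 1 read or more, open points for 0 reads and a line at the group mean. EPHA3, EPHA7, EPHA8 and EPHB1 are at 0 reads in all OKF6 libraries, and EFNB3 is at 0 reads in all 6 SCC25 libraries.

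Some of these genes are neighbours on chromosome 1 (build GRCh38, GENCODE v44). EPHA8 ends 107 kb before the start of EPHB2, and they differed in pattern, with 1 read of EPHA8 outside SCC15 and EPHB2 highest in SCC25. EFNA4, EFNA3 and EFNA1 follow each other on the same strand, with 9.28 kb between the first pair and 40.3 kb between the second. EFNA1 was lower in SCC15 than in SCC25 by the test, and EFNA4 (−0.70, adjusted p 0.0684) and EFNA3 (0.96, adjusted p 0.123, limma) did not pass it.

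Likeness of pattern was measured as the root mean square (RMS) difference between the means of 2 genes in the 5 groups, each centred on its own average, and is a description without a test. EPHA2 and EPHB3 were each nearest to the other among the 10, at 0.16 log2 units, and EFNB1 came nearest to EPHB3 at 0.40. EFNA1 and EFNB2 were both nearest to EPHA2, at 0.63 and 0.83, while the nearest member to EPHA1, EPHA4 and EPHB2 stood at 1.74, 1.95 and 1.98. Among the 6465 genes of higher mean level, those close to EPHA2 included MELTF (0.10), FSCN1 (0.13), LASP1 (0.14) and MSN (0.17). Those nearest to EPHB2 were TOX2 (0.65), NFIX (0.74), COL5A1 (0.81), GSTM4 (0.83) and SLC12A7 (0.89).

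Differences within a library between 2 genes of the family also varied with the line. These differences, chosen after the values were seen, compare groups and not the amounts of the 2 RNAs, and no test was made. EPHB4 less EFNB2 was 0.62 ± 1.06 log2 units in OKF6, 2.32 ± 0.07 in SCC25 +YBX1 and 3.19 ± 0.20 in SCC15 +YBX1 (SD, n = 3), and the libraries of the 3 lines did not overlap. How many other pairs of genes show no overlap was not counted. EPHB2 less EFNB1 was −8.69 ± 2.87 in OKF6, where EPHB2 had few reads, −2.14 ± 0.20 in SCC25 +YBX1 and −0.12 ± 0.50 in SCC15 +YBX1. EPHA2 less EFNA1 was 1.35 ± 0.53 in OKF6, 0.60 ± 0.28 in SCC25 +YBX1 and −0.34 ± 0.38 in SCC15 +YBX1. EPHA4 less EPHA2 was −6.77 ± 0.95 in SCC25 +YBX1 and −1.33 ± 0.78 in SCC15 +YBX1.

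Of 55 genes listed as partners of Eph signalling (kinases, adaptors, GTPase regulators, proteases and phosphatases that act downstream of or on these receptors), 53 were in the tables. Compared with SCC25, 4 were higher and 22 lower in SCC15, with a median log2 difference of −0.60, beside 20.0% and 23.6% of all genes and a median of −0.01. Compared with OKF6, 6 were higher and 24 lower in SCC15 (median −0.78), beside 26.9% and 23.4% of all genes and a median of 0.10. In SCC25, 8 were higher and 8 lower than in OKF6 (median −0.12), beside 18.9% and 11.3% of all genes and a median of 0.13. ARHGEF5, an exchange factor of the ephexin group, had 1 read in SCC15 +YBX1, a ratio of 422 in favour of SCC25 (95% counting interval 75.2 to 16706), and MMP14, a membrane-bound matrix protease, had 2 reads there (204, 56.2 to 1695). VAV3, a guanine exchange factor recruited by Eph receptors, was also lower in SCC15 than in SCC25 (−2.91, adjusted p 0.0054, limma).

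Higher in SCC15 than in SCC25 were CHN1, the Rac-inactivating chimaerin that acts below EPHA4 (56.4 times, 95% counting interval 21.8 to 209, 4 reads in SCC25 +YBX1), the PDZ protein PICK1 (2.13, adjusted p 0.000187) and the Rac activator TIAM1 (2.00, adjusted p 0.00177, limma). Compared with OKF6, NGEF, which is ephexin-1 and binds EPHA4, was 124 times higher in SCC15 (33.9 to 1025) and 85.1 times higher in SCC25 (23.2 to 708), with 2 reads in OKF6. The PI3K regulatory subunit PIK3R1 was lower than in OKF6 in SCC15 (−3.32, adjusted p 3.23e-05) and in SCC25 (−3.09, adjusted p 0.000211), and DVL2, an adaptor of the Wnt pathway that B-type ephrins also use, was higher in both (2.15 and 1.81, adjusted p 5.66e-06 and 8.56e-05, limma). INPPL1, the lipid phosphatase that binds EPHA2, was higher in SCC25 than in OKF6 (2.47, adjusted p 0.000691), and the Src family kinase YES1 (−1.52, adjusted p 0.0069) and the scaffold ITSN2 (−1.44, adjusted p 0.0212, limma) were lower. The OKF6 libraries are shared by these 2 comparisons.

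The knockdown comparison asks whether these genes depend on YBX1, and none of the 10 passed the test in either line. YBX1 itself, at −2.01 in SCC25 and −2.15 in SCC15, did not pass it either in a single line (adjusted p 0.290 and 0.326, limma). In SCC25, 0 of the 10 were past an adjusted p of 0.05 (0% of all genes), 0 were past an unadjusted p of 0.05 (3.09% of all genes) and 0 had libraries without overlap between −YBX1 and +YBX1 (7.31% of all genes). Their log2 changes ran from −0.21 for EFNB2 to 0.19 for EPHA4, with a median of −0.04 beside −0.02 for all genes. For EPHA2 the change in SCC25 was −0.03 with a 95% interval of −0.73 to 0.67, and for EFNB1 −0.14 with an interval of −0.49 to 0.21. Without the second SCC25 −YBX1 library, which stood apart, the median was −0.08 and 0 of the 10 were past an unadjusted p of 0.05.

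In SCC15, EPHA1 had no reads to compare, and 0 of the other 9 passed the test (0% of all genes). Of these 9, 8 lay lower in −YBX1 and 1 higher, where 6662 of all 12995 genes lay lower. Their median log2 change was −0.37 beside −0.01 for all genes, and 1 of the 9 was past an unadjusted p of 0.05 (2.32% of all genes). That gene was EFNB1, at −0.37 (SE 0.16, unadjusted p 0.0366, lower in 3 of 3 same-numbered pairs), and its adjusted p was above 0.999 (limma). EFNB2 and EPHB4 were the 2 of the 9 whose libraries did not overlap (7.04% of all genes). EFNB2 differed by −0.60 (95% interval −1.22 to 0.01), with same-numbered pairs at −0.57, −0.17 and −1.06. EPHB4 differed by −0.37 (95% interval −0.78 to 0.04), with pairs at −0.35, −0.33 and −0.43. The intervals and p-values given here come from the fit that did not use the pairs. Without the first SCC15 −YBX1 library, which stood apart, the median change of the 9 was −0.32, EFNB1 was at −0.25 (unadjusted p 0.134) and EPHB2, at −0.69, was the 1 gene past an unadjusted p of 0.05 (0.0434, limma). That fit kept the first SCC15 +YBX1 library, where EPHB2 read 4.60 log2 CPM beside 3.82 and 3.48 in the others. The same-numbered pairs of EPHB2 stood at −0.57, −0.21 and −0.54, so its −0.69 rests on the library kept.

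**Figure D4:**
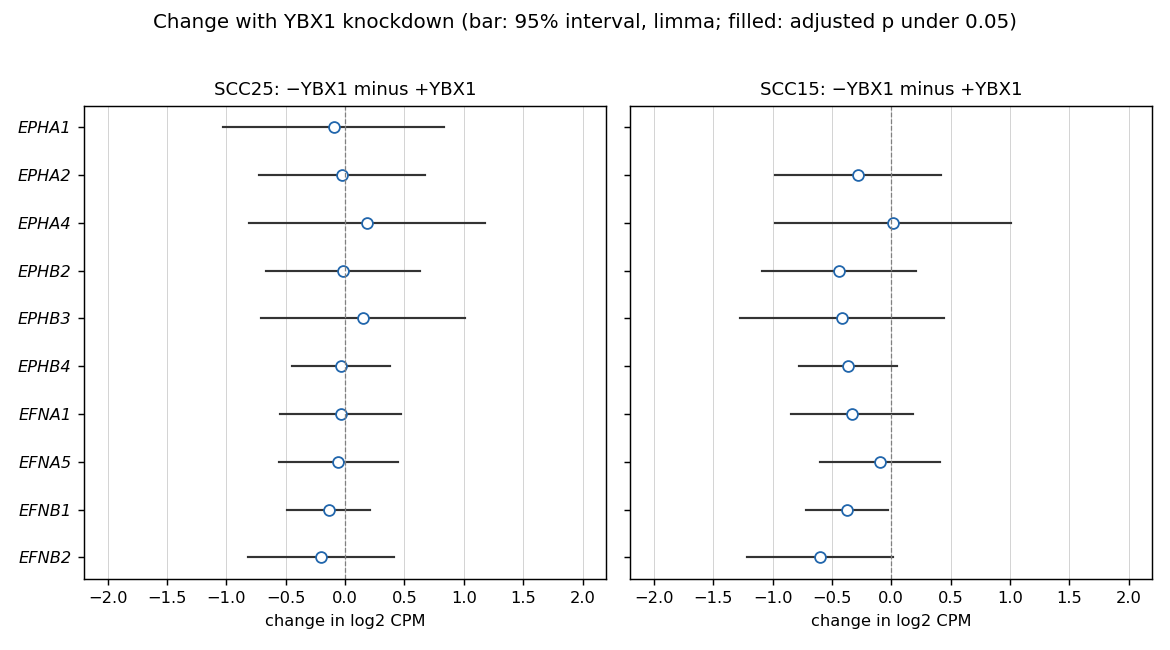
Change in log2 CPM from +YBX1 to −YBX1 (horizontal axis) for the 10 genes (vertical axis) in SCC25 and in SCC15, with the 95% interval of limma as a bar and open points since none had an adjusted p under 0.05. EPHA1 is left out in SCC15, where it had 0 reads, and the 9 others run from −0.60 for EFNB2 to 0.02 for EPHA4 there.

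Averaged over both lines, 0 of the 9 genes with reads in both passed the test, where 1 gene of all did (0.00770%), and that gene was YBX1 itself (−2.08, adjusted p 0.0103, limma). That call was lost without any 1 of 6 libraries, the second or the third of SCC15 +YBX1, the first or the third of SCC15 −YBX1 and the first or the third of SCC25 +YBX1 (adjusted p 0.0527 to 0.0711). At an unadjusted p of 0.05 the 9 held 1, EFNB1 at −0.26 (unadjusted p 0.0414, limma), where 2.15% of all genes were past it. The change in SCC25 less that in SCC15 was tested as an interaction, and 0 of the 9 passed it (0% of all genes) or an unadjusted p of 0.05 (2.26% of all genes). All 9 differences were above 0, from 0.04 for EFNA5 to 0.57 for EPHB3, each with a 95% interval that included 0. Of all 12995 genes, 6345 lay above 0, with a median of −0.01. The 9 genes were read in the same libraries, so that their signs do not stand independently of each other. The same +YBX1 libraries serve in the comparison of the lines. None of the 7 further family genes and none of the 53 partners passed the test on knockdown in either line (limma), and 0 of them were past an unadjusted p of 0.05. For the mean and for the difference between lines, 0 of these genes passed the test (limma). In each of these 2 comparisons 1 of the 53 partners and 0 of the 7 were past an unadjusted p of 0.05.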

How the data were processed

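The authors prepared QuantSeq 3′ mRNA FWD libraries and sequenced them as single reads of 75 bases. Per the labels and the submitters' processing notes, reads were handled with cutadapt, HISAT2, featureCounts and limma on hg38 (versions not given in the sources used here). The authors deposited 2 tables of log2 values, each the log2 of CPM with 0.5 reads added and after their filter and normalisation. One covers OKF6, SCC15 +YBX1 and SCC25 +YBX1, the other SCC15 and SCC25 with and without YBX1. The 6 libraries in both tables differed by at most 5e-08, and 100% of the values gave back whole reads within 0.01, a tolerance widened in proportion for high counts. Counts of reads are those recovered reads.

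Tests ran on these deposited log2 values. A single linear model held every group of a table, fitted by limma (version 3.58.1, under R 4.3.3) with moderated, trended variances and 2-sided tests, and p-values were adjusted by Benjamini-Hochberg across its 12995 genes and called at 0.05. The code was tested on simulated data. The members, the lists, the tests and the alternatives were chosen with earlier results of these data known. The genes named are the 10 members, YBX1, the other family genes listed, the nearest genes in pattern (1 is not reported here), and per comparison up to 3 partners with the largest called difference in each direction. Likeness used genes above the median level.

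The labels number replicates 1 to 3. Deviations of same-numbered libraries from their group means, over 6497 genes, correlated at 0.14, 0.46 and 0.40 in SCC25 and at 0.51, 0.35 and 0.22 in SCC15, all above 0.1, so that the numbers pair −YBX1 with +YBX1 libraries within a line. Between lines the correlations ran from −0.21 to 0.26, and the numbers were not taken as pairs. Other settings tried were a block on the replicate number, a fit restricted to the compared groups, libraries set to equal medians or quantiles, variances without a trend or with robust moderation, removal of the lowest quartile of genes, voom weights, 2 reads added before the log, a threshold of 0.01, and each library left out in turn. Promoters come from RefSeq (GRCh38.p14), and positions from GENCODE v44. Figures were drawn with matplotlib 3.10.9.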

Additional observations from a re-analysis of the deposited data

How the results depend on the processing

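The number of the 10 genes called was 7 for SCC15 against SCC25 and 6 to 10 under the alternatives, 8 for SCC15 against OKF6 and 6 to 10, and 4 for SCC25 against OKF6 and 2 to 5. Of all genes, 5672, 6534 and 3923 were called, with 3838 to 7748, 4563 to 7434 and 2206 to 5331 under the alternatives. The lowest of these for the comparisons of SCC15, 3838 and 4563, come from the genes above the first quartile alone. For SCC25 against OKF6 the number of the 10 genes fell to 2 at a threshold of 0.01, where 2206 of all genes were called in place of 3923. It ran from 2 to 5 with 1 library left out, with 2 without the first or the second SCC25 +YBX1 library. EPHA1 and EPHA4 were not tested among genes above the first quartile. With 1 library left out, EFNA5 in SCC25 against OKF6 ran from −0.38 to 0.32. No gene of the 10 was called on knockdown under any alternative. Without the second SCC25 −YBX1 library, 6 of all genes were called in SCC25. For the mean of both lines the count of all genes was 0 to 2 with 1 library left out and 0 with no variance trend and at a threshold of 0.01.

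Uncalled knockdown changes crossed 0 when 1 library was left out. In SCC25 these were EPHA1 (−0.40 to 0.21), EPHA2 (−0.17 to 0.0857), EPHA4 (−0.50 to 0.53), EPHB2 (−0.15 to 0.0720), EPHB3 (−0.28 to 0.52), EPHB4 (−0.22 to 0.13), EFNA1 (−0.24 to 0.19) and EFNA5 (−0.24 to 0.0856). In SCC15 they were EPHA2 (−0.53 to 0.16), EPHA4 (−0.0515 to 0.12, and −0.00892 with equal medians and −0.0128 with equal quantiles) and EFNA5 (−0.28 to 0.0710). For the mean they were EPHA2 (−0.28 to 0.0667), EPHA4 (−0.24 to 0.28), EPHB3 (−0.34 to 0.0508) and EFNA5 (−0.17 to 0.00734), and for the difference between lines EPHA2 (−0.19 to 0.50), EPHA4 (−0.52 to 0.52), EFNA5 (−0.14 to 0.23) and YBX1 (−0.22 to 0.58). The cause was not tested.

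The replicate block left the knockdown calls as they were, with 0 of the 10 genes called in each line, and so did a replicate block within each line, chosen after seeing the data. Between the lines the numbers were not taken as pairs. The block gave 8, 9 and 4 called genes there and 5451, 6401 and 3708 of all genes. Where a group held 0 to 3 reads of a gene, depth allowed only a bound or a counting interval.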
